A study of Mus musculus with 8 samples.

Results

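The genes described are the heat shock proteins and DnaJ cochaperones of the mouse retina, taken as every gene whose single platform symbol begins with Hspa, Hspb, Hspd, Hspe, Hsph, Hsp90 or Dnaj. The rule found 72 of the 18193 genes with a single symbol, read by 174 of 45037 probe sets, and each gene was represented by its brightest probe set. By family there were 2 Hsp90 genes, 14 Hspa and Hsph genes, 10 with the prefix Hspb, the pair Hspd1 and Hspe1, 4 Dnaja, 13 Dnajb and 27 Dnajc genes. No gene was dropped for a low signal. The retinas came from mice of the strain BALB/c AJ at postnatal day 40 and were freed of the retinal pigment epithelium (RPE). There were 3 wild-type arrays, 2 from mice heterozygous for a null allele of Nxnl1 and 3 from homozygous null mice, and Nxnl1 encodes a thioredoxin-like protein of photoreceptors. Affymetrix arrays were used, the values are log2 levels made with RMA, and a difference of 1 is a doubling. The labels do not tie the arrays of a group to separate animals. Every p-value therefore judges a result only against the spread of these samples, and part or all of that spread may be technical.

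Heat shock proteins are chaperones that hold, fold or refold other proteins. Hsp70 proteins (Hspa genes) bind and release unfolded chains in a cycle driven by ATP, DnaJ proteins deliver clients and start the hydrolysis, Hsp110 proteins (Hsph1, Hspa4, Hspa4l) exchange the nucleotide, Hsp90 finishes the folding of kinases and receptors, small heat shock proteins (Hspb) hold aggregating clients without ATP, and Hsp60 with Hsp10 (Hspd1, Hspe1) form the folding chamber of mitochondria. Photoreceptors make large amounts of membrane and signalling proteins each day. Unfolded protein in the cytosol raises a subset through heat shock factors, and unfolded protein in the endoplasmic reticulum (ER) raises another through the unfolded protein response.

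Promoter stretches of some of these stress-responsive genes are shown because unfolded protein in the cytosol or the ER is known to act through such elements. RefSeq promoters of the build GRCm38.p6, 250 bases before to 50 after a start, were found for 59 of the 72 genes. The heat shock element was searched on both strands in its short form, GAANNTTC or TTCNNGAA, which lay in 18 of 76 member promoters (23.7%) and in 15.1% of 32851 promoters of the same length. Its longer form, GAANNTTCNNGAA or TTCNNGAANNTTC, contains the short one. It lay in 6 of 76 member promoters (7.89%) against 0.603% of all, in Dnajb6, Hspd1, Hspe1 and Hsph1. Dnajb6 and Hsph1 entered through overlapping promoters that hold the same site, and Hspd1 and Hspe1 share theirs. The member shares of both forms therefore count some sites more than once. The ER stress element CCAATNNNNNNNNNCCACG, or its complement, lay in 3 of 76 member promoters (3.95%) against 0.119% of all, in Hspa5, Hsp90b1 and Dnajc3. Stress-responsive chaperone genes are known to hold such elements, so these shares are a description and no independent result. The short form matched in 16 genes. Of these, Dnaja4, Dnajb6, Dnajc10, Dnajc27, Dnajc5g, Hspb3 and Hspb6 are not on the list of heat-inducible genes used here. Of that list, Dnajb1 was searched without a match, and Hsp90aa1 and Hspa8 had no promoter to search. A match is a description of letters and not a proof of a binding site. In the stretches below, each printed in the direction of its gene and upstream of the start, capitals mark the fixed letters of the heat shock element in the first 5 and of the ER stress element in the last 3. They are Hspa1b at chr17:34959323-34959354 (minus strand), Hspb1 at chr5:135887790-135887841 (plus), Hsph1 at chr5:149636350-149636381 (minus), Hspd1 at chr1:55088047-55088088 (minus), Dnaja1 at chr4:40722332-40722363 (plus), Hspa5 at chr2:34772013-34772055 (plus), Hsp90b1 at chr10:86705521-86705668 (minus) and Dnajc3 at chr14:118937815-118937857 (plus).
Hspa1b: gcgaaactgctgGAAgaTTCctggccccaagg
Hspb1: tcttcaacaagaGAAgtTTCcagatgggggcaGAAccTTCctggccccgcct
Hsph1: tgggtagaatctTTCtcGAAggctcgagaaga
Hspd1: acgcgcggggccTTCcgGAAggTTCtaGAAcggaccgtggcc
Dnaja1: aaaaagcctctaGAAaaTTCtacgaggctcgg
Hspa5: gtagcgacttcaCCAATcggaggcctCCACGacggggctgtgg
Hsp90b1: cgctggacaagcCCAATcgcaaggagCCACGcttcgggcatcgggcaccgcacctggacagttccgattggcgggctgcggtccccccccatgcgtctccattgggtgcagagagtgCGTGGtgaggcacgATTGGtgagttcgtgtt
Dnajc3: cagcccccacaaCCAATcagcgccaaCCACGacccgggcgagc
Hspa1a, a near-identical neighbour of Hspa1b, has the same 32 letters at chr17:34972241-34972272. Hspd1 and Hspe1 lie head to head, so the element shown for Hspd1 is also that of Hspe1, read on the other strand.

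Some properties of the arrays bear on every value that follows. Nxnl1 read 8.65 to 9.22 on the wild-type arrays and 6.13 on homozygous arrays 1 and 3, but 8.76 on homozygous array 2, and it read 8.65 and 6.75 on heterozygous arrays 1 and 2. Homozygous array 2 thus goes against its label, and the heterozygous arrays disagree, array 1 at the wild-type level and array 2 nearer to the low homozygous arrays. The second Nxnl1 probe set gave the same picture, with 6.79 and 5.48 on the heterozygous arrays and 6.21 to 6.76 in wild type. Homozygous array 2 and heterozygous array 2 are called the arrays in doubt, and leaving them out does not settle the label of heterozygous array 1. The actin control, 5' minus 3' signal, was lowest on wild-type array 1 (-1.81) and homozygous array 1 (-1.74) and ran from -1.26 to -0.69 on the others. Of 6 photoreceptor markers 5 were measured, and their summed log2 level was 16.15 to 16.32 on all arrays, with Prph2 at 12.85 on homozygous array 2 and 13.35 to 13.51 on the others. Pigment epithelium markers were read although this layer had been removed, Ttr at 11.99 to 13.11 and Rpe65 at 9.16 to 10.48. All 6 were below 0 in both comparisons with wild type, with a median of -0.34 for homozygous and -0.67 for heterozygous. For heterozygous against wild type, 4 of the 6 were lower at an unadjusted p under 0.05 in limma, against 0.72% of all genes. None of these markers had an adjusted p under 0.05. Their summed log2 level was 13.56 to 14.03 over the wild-type arrays, 13.34 and 13.37 on the heterozygous ones and 13.21 to 13.82 over the homozygous ones. Their part in the differences of the chaperone genes was not tested. The summed lens markers, 8 of 8 measured, ran from 8.51 to 11.42 over the wild-type arrays and from 8.27 to 13.08 over the homozygous ones, and read 8.54 and 11.82 on heterozygous arrays 1 and 2. In whole retina, fewer cells of a type and less RNA per cell cannot be told apart.

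**Figure D1:**
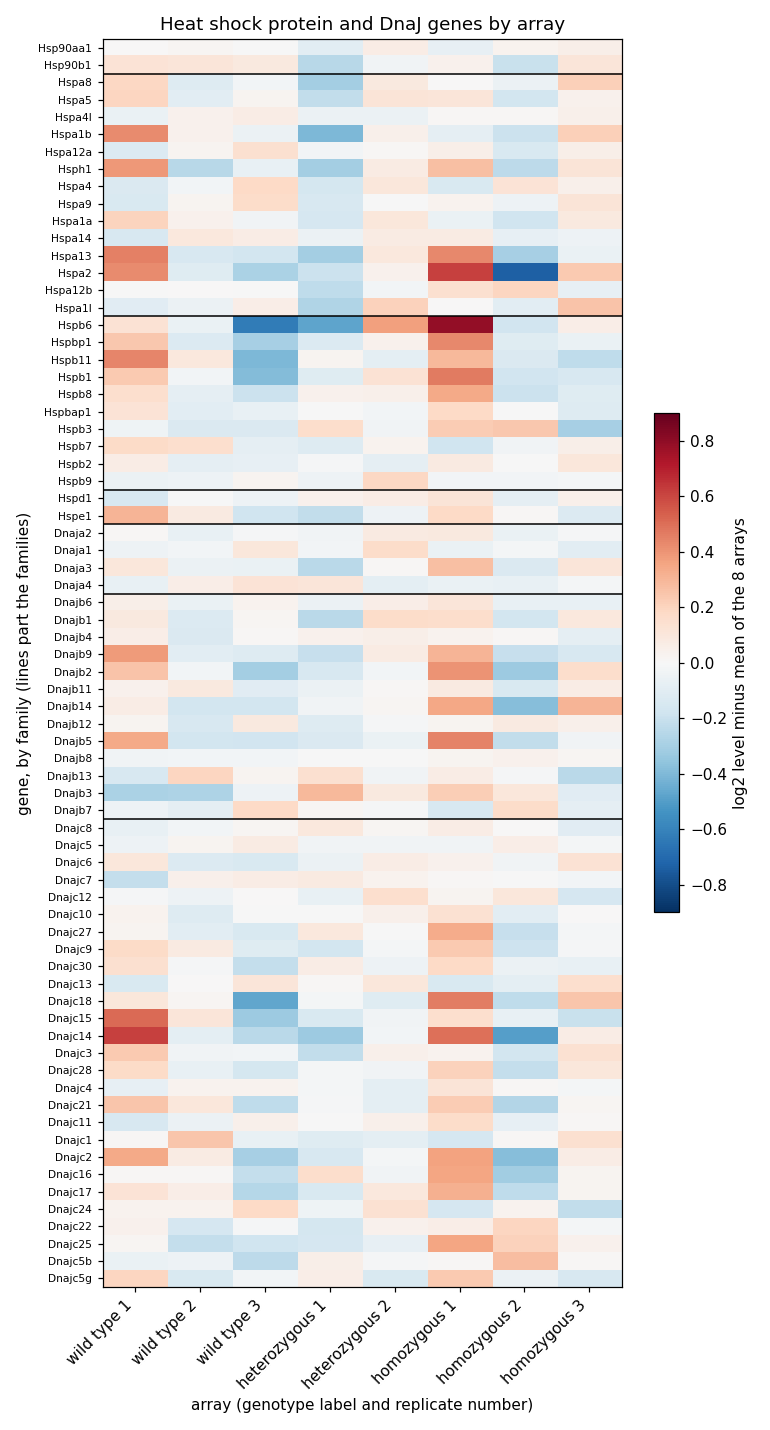
Log2 level of each of the 72 genes on each of the 8 arrays, minus its mean over the arrays, as colour (red above, blue below), with genes grouped by family. The 2 columns with most of the strong red are wild-type array 1 and homozygous array 1, and no block of genes follows the genotype labels.

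Across the 72 genes the range between the lowest and the highest array had a median of 0.41, the same as over all 18193 genes, and ran from 0.07 to 1.42. Homozygous array 1 held the highest value of 26 of 72 genes (36.1%, against 34.7% of all genes) and wild-type array 1 that of 15 (20.8%, against 15.7%). The lowest values were most often on heterozygous array 1, with 16 of 72 (22.2%, against 11.6% of all genes), and on homozygous array 2, also with 16 (22.2%, against 18%).

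The cytosolic stress response was followed through 12 genes known as targets of heat shock factor 1. None of the 12 passed limma's test in any comparison, and 0 had an unadjusted p under 0.05 for homozygous or heterozygous against wild type. Their median log2 difference was 0.02 for homozygous minus wild type (8 of 12 above 0) and -0.03 for heterozygous minus wild type (5 of 12), where all genes had 0.02 and -0.01.

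Hspa1b, an inducible Hsp70, read 10.99, 10.60 and 10.51 on the wild-type arrays, 10.16 and 10.61 on the heterozygous ones and 10.48, 10.37 and 10.78 on the homozygous ones. Wild-type array 1 was highest and heterozygous array 1 lowest, and the groups overlapped. The homozygous difference was -0.15 (SE 0.18, limma unadjusted p 0.413) and the heterozygous one -0.31 (SE 0.20, limma unadjusted p 0.155). Hspa1a, its near-identical copy, read 9.70, 9.54 and 9.47 on the wild-type arrays, 9.35 and 9.60 on the heterozygous ones and 9.44, 9.32 and 9.59 on the homozygous ones, a homozygous difference of -0.12 (SE 0.12, limma unadjusted p 0.345). Probe sets of the pair may share transcripts, so the copies are not told apart with certainty. Hspa1b was read by 2 more probe sets, which gave the same order at both ends, with wild-type array 1 highest and heterozygous array 1 lowest. The homozygous difference of Hspa1b was -0.01 without wild-type array 1 and -0.27 without homozygous array 3, and between these with any other array left out. Its heterozygous difference was -0.09 without heterozygous array 1 and -0.54 without heterozygous array 2. The homozygous difference of Hspa1a was -0.05 without wild-type array 1 or homozygous array 2 and -0.19 without homozygous array 3.

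Hspb1, the small heat shock protein Hsp27, read 8.04, 7.78 and 7.41 on the wild-type arrays, 7.69 and 7.93 on the heterozygous ones and 8.27, 7.63 and 7.66 on the homozygous ones. Homozygous array 1 was highest and wild-type array 3 lowest. The homozygous difference was 0.11 (SE 0.21) and turned to -0.10 without homozygous array 1 and to -0.06 without wild-type array 3, and was 0.26 without wild-type array 1. Dnajb1, the Hsp40 that works with inducible Hsp70, read 10.35, 10.14 and 10.28 on the wild-type arrays, 10.02 and 10.43 on the heterozygous ones and 10.42, 10.10 and 10.36 on the homozygous ones. The 2 heterozygous arrays lay at either end of the range, and the homozygous difference was 0.04 (SE 0.14). Hsph1, an Hsp110, had a homozygous difference of 0.02 (SE 0.20), Dnajb4 of 0.01 (SE 0.09) and Hspb8, the partner of Bag3 in clearing aggregates, of 0.05 (SE 0.15).

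**Figure D2:**
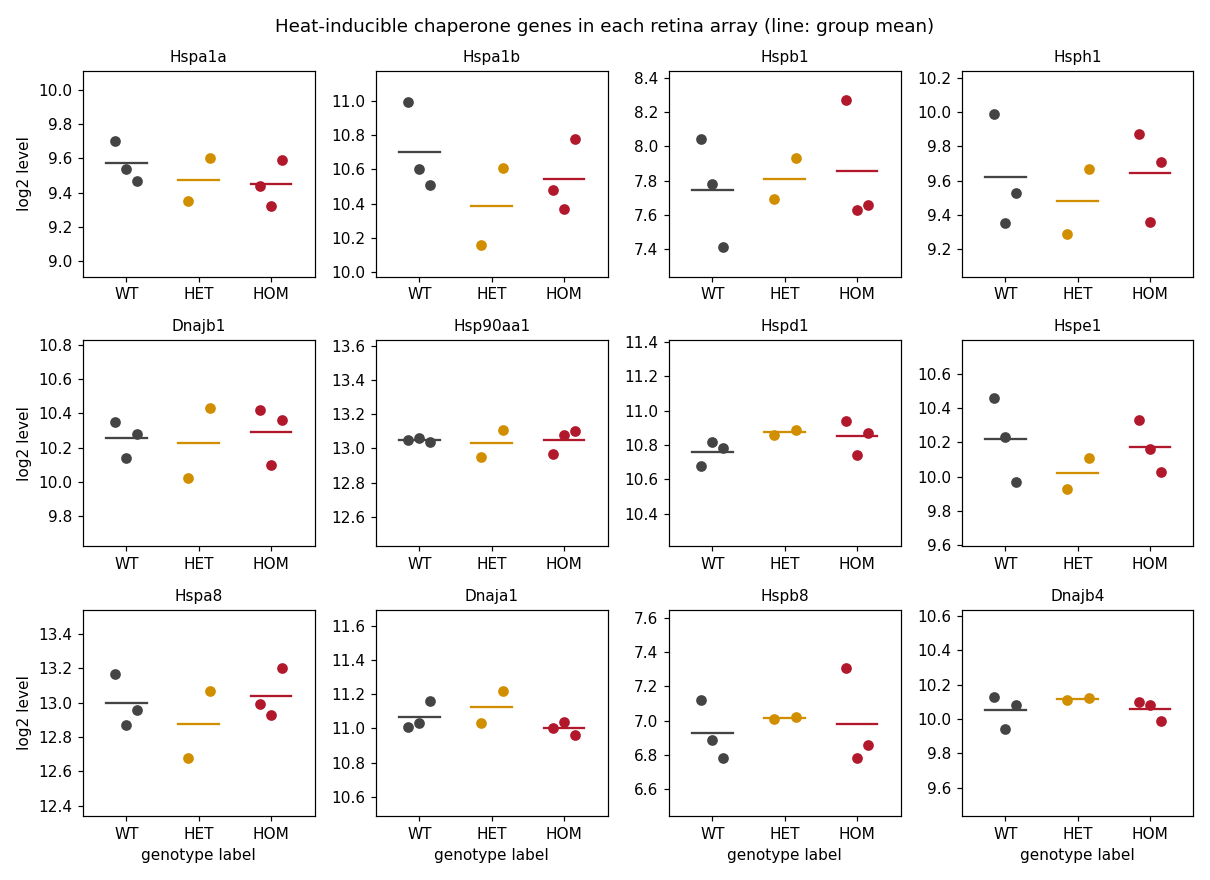
Log2 level of 12 heat-inducible genes on each array (points), by genotype label (WT wild type, HET heterozygous, HOM homozygous null), with the group mean as a line and an equal span of 1.2 log2 units on each vertical axis. The wild-type and homozygous points overlap in every panel, and only for Hspd1 do both heterozygous arrays lie on the same side of the wild-type range.

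Hsp90aa1, the inducible cytosolic Hsp90, read 13.05, 13.06 and 13.04 on the wild-type arrays, 12.95 and 13.11 on the heterozygous ones and 12.97, 13.08 and 13.10 on the homozygous ones. The homozygous difference was 0.00032 (SE 0.09). Hsp90ab1 was not analysed here.

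Hsp90b1, the Hsp90 of the ER, read 11.31, 11.30 and 11.28 on the wild-type arrays, 10.94 and 11.16 on the heterozygous ones and 11.23, 10.99 and 11.30 on the homozygous ones. Both heterozygous arrays and homozygous arrays 1 and 2 lay below all wild-type arrays, while homozygous array 3 lay among them. The heterozygous difference was -0.24 (SE 0.12, limma unadjusted p 0.0879) and became -0.13 without heterozygous array 1. The homozygous difference was -0.12 (SE 0.11, limma unadjusted p 0.306) and became -0.03 without homozygous array 2 and -0.19 without homozygous array 3.

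Hspa5, also called BiP and the main Hsp70 of the ER, read 11.94, 11.65 and 11.77 on the wild-type arrays, 11.52 and 11.86 on the heterozygous ones and 11.85, 11.58 and 11.78 on the homozygous ones. Its groups overlapped, with a homozygous difference of -0.05 (SE 0.13). Of the 11 ER members, 4 were above 0 for homozygous and 3 for heterozygous against wild type, with medians of -0.02 and -0.09. Dnajc3, which carries the ER stress element, differed by -0.06 (SE 0.13), Dnajb9, an ER cochaperone of BiP, by -0.07 (SE 0.19), and Dnajb11, another, by -0.01 (SE 0.10). Among the 11, the largest homozygous difference was that of Dnajc25, a membrane DnaJ protein described with the comparison of genotypes. Dnajb14 differed by 0.18 (SE 0.19). The list of 11 does not include Dnajc14.

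Among the other Hsp70 and Hsp110 genes, Hspa8, the constitutive Hsc70 that also strips clathrin from vesicles, read 13.17, 12.87 and 12.96 on the wild-type arrays, 12.68 and 13.07 on the heterozygous ones and 12.99, 12.93 and 13.20 on the homozygous ones. Its lowest value was again on heterozygous array 1, and the homozygous difference was 0.04 (SE 0.14). This array held the lowest value of 9 of the 14 Hspa and Hsph genes (64.3%, against 11.6% of all genes), namely Hspa1b, Hspa1l, Hspa4, Hspa5, Hspa8, Hspa9, Hspa12b, Hspa13 and Hsph1, and of both Hsp90 genes. For heterozygous minus wild type 12 of the 14 were below 0, with a median of -0.09. None passed the test, and 0 of the 14 had an unadjusted p under 0.05. The low values belong to 1 of the 2 arrays: relative to each gene's mean over the 8 arrays, the median of the 14 genes was -0.21 on heterozygous array 1 and 0.07 on heterozygous array 2.

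Hspa2, an Hsp70 best known from the testis, varied most in this family. It read 5.98, 5.44 and 5.27 on the wild-type arrays, 5.36 and 5.59 on the heterozygous ones and 6.17, 4.82 and 5.79 on the homozygous ones, with both extremes among the homozygous arrays. Its homozygous difference was 0.03 (SE 0.33), and it was 0.41 (SE 0.24, limma unadjusted p 0.139) without the 2 arrays in doubt. With 1 array left out it ran from -0.26, without homozygous array 1, to 0.41, without homozygous array 2. Its mean lay below 6.19, the median over all probe sets, as did those of 13 other members: Hspa12b, Hspa1l, Hspb2, Hspb3, Hspb7, Hspb9, Dnajb3, Dnajb7, Dnajb8, Dnajb13, Dnajc5b, Dnajc5g and Dnajc25. Signals so low were not checked for detection.

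The Hspb prefix covers small heat shock proteins and 3 genes of other kinds: Hspb11, the intraflagellar transport protein Ift25, Hspbp1, an exchange factor for Hsp70, and Hspbap1, a partner of Hspb1. Hspb6, also called Hsp20, had the widest range of all 72 genes, 1.42. It read 10.06, 9.87 and 9.30 on the wild-type arrays, 9.46 and 10.30 on the heterozygous ones and 10.72, 9.76 and 9.99 on the homozygous ones. The homozygous difference was 0.41 (SE 0.32, limma unadjusted p 0.23) and 0.61 (SE 0.30, limma unadjusted p 0.091) without the 2 arrays in doubt. It fell to 0.13 without homozygous array 1 and to 0.19 without wild-type array 3. The lens crystallin Cryab, a small heat shock protein outside the prefix, read 10.35, 9.53 and 9.03 on the wild-type arrays, 9.01 and 10.59 on the heterozygous ones and 11.76, 9.29 and 10.71 on the homozygous ones. The 4 arrays with the highest Cryab and summed lens marker levels, homozygous 1 and 3, heterozygous 2 and wild type 1, were also the 4 highest for Hspb6. Of the lens markers, the crystallins Cryaa, Cryba1, Crybb2 and Crygs had these 4 arrays highest, while Bfsp1, Bfsp2, Lim2 and Mip did not. The same 4 arrays were the 4 highest for 15 of the 72 genes (20.8%, against 8.54% of all genes), among them Hspa2, Hspa5, Hspa8, Hspa13, Hsph1, Dnajb1 and Dnajc14. Of these arrays, homozygous 1 and 3 and heterozygous 2 were also those of lowest Nxnl1 (6.13, 6.13 and 6.75), while wild type 1 read 9.22. The parts of lens tissue and of the Nxnl1 level in these values were not tested.

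Hspbp1 read 9.27, 8.91 and 8.73 on the wild-type arrays, 8.91 and 9.07 on the heterozygous ones and 9.46, 8.92 and 8.97 on the homozygous ones, a homozygous difference of 0.15 (SE 0.18). Hspb11 read 9.28, 8.93 and 8.43 on the wild-type arrays, 8.86 and 8.75 on the heterozygous ones and 9.13, 8.71 and 8.61 on the homozygous ones. Its difference of -0.06 (SE 0.22) turned to 0.14 without wild-type array 1 and to 0.04 without homozygous array 3, and was -0.29 without wild-type array 3. Hspb7, known from heart and skeletal muscle, differed by -0.14 (SE 0.11, limma unadjusted p 0.253), by -0.07 without homozygous array 1 and by -0.21 without wild-type array 3. Beside it, 5 of 6 muscle markers were also below 0, and their summed log2 level was 9.60 on wild-type array 1 and 8.21 to 8.55 on the 7 others. Hspb7 itself read 5.41, 5.39 and 5.16 on the wild-type arrays, 5.12 and 5.27 on the heterozygous ones and 5.06, 5.21 and 5.29 on the homozygous ones. It was thus also highest on wild-type array 1, at a low signal with a mean of 5.24. The part of muscle tissue in its values was not tested.

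Of the mitochondrial folding chamber, Hspd1 varied little, by 0.26, and Hspe1 by 0.53. Hspd1 read 10.68, 10.82 and 10.78 on the wild-type arrays, 10.86 and 10.89 on the heterozygous ones and 10.94, 10.74 and 10.87 on the homozygous ones. Both heterozygous arrays lay above wild type, by 0.11 (SE 0.10, limma unadjusted p 0.31; 0.07 without wild-type array 1), and the homozygous difference was 0.09 (SE 0.09). Hspe1, which shares its promoter, read 10.46, 10.23 and 9.97 on the wild-type arrays, 9.93 and 10.11 on the heterozygous ones and 10.33, 10.16 and 10.03 on the homozygous ones, with differences of -0.20 (SE 0.16) for heterozygous and -0.05 (SE 0.14) for homozygous against wild type. The pair thus had opposite signs in both comparisons, and neither difference was beyond the spread. Of 9 mitochondrial members measured, 7 were above 0 for homozygous minus wild type with a median of 0.05, and 0 had an unadjusted p under 0.05.

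The Dnaja and Dnajb genes encode the general J proteins. Dnaja2 read 11.44, 11.36 and 11.42 on the wild-type arrays, 11.40 and 11.51 on the heterozygous ones and 11.52, 11.37 and 11.42 on the homozygous ones, a span of 0.16. Dnaja1 read 11.01, 11.03 and 11.16 on the wild-type arrays, 11.03 and 11.22 on the heterozygous ones and 10.96 to 11.04 on the homozygous ones, highest on heterozygous array 2. Dnajb6, which keeps aggregating proteins soluble, read 11.23, 11.12 and 11.21 on the wild-type arrays, 11.13 and 11.24 on the heterozygous ones and 11.29, 11.11 and 11.11 on the homozygous ones, with all groups overlapping. The homozygous differences were 0.03 (SE 0.09) for Dnaja2, -0.06 (SE 0.09) for Dnaja1 and -0.02 (SE 0.09) for Dnajb6. Dnaja4 read 8.75, 8.88 and 8.94 on the wild-type arrays, 8.93 and 8.73 on the heterozygous ones and 8.76, 8.75 and 8.80 on the homozygous ones, a difference of -0.09 (SE 0.10) that was -0.14 without wild-type array 1 and -0.05 without wild-type array 3.

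The Dnajc family joins J domains to many tasks. Dnajc5, the cysteine string protein of synaptic vesicles, read 11.19, 11.26 and 11.31 on the wild-type arrays, 11.21 and 11.21 on the heterozygous ones and 11.21, 11.30 and 11.22 on the homozygous ones. Dnajc8, which associates with the spliceosome, read 11.48, 11.52 and 11.56 on the wild-type arrays, 11.64 and 11.56 on the heterozygous ones and 11.61, 11.55 and 11.44 on the homozygous ones. Dnajc6, the auxilin that brings Hsc70 to clathrin coats, stayed between 10.84 and 11.11. The homozygous differences were -0.01 (SE 0.08) for Dnajc5, 0.01 (SE 0.09) for Dnajc8 and 0.10 (SE 0.10) for Dnajc6, all within the spread of the arrays. Dnajc14, a DnaJ protein of the ER membrane, moved far more, reading 9.40, 8.70 and 8.54 on the wild-type arrays, 8.46 and 8.76 on the heterozygous ones and 9.28, 8.29 and 8.85 on the homozygous ones. Wild-type array 1 and homozygous array 1 were highest, and the difference of -0.08 (SE 0.29) turned to 0.18 without wild-type array 1, without homozygous array 2, and without the 2 arrays in doubt, and was -0.31 without homozygous array 1.

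Homozygous null retinas were set against wild type to ask whether chaperone levels move when Nxnl1 is lost. Limma called 0 of the 174 member probe sets and 0 of 45037 overall (0%) at an adjusted p of 0.05, and the smallest adjusted p of a member was 0.9999. At an unadjusted p under 0.05 there was 1 of 72 genes higher, where 0.621% of all genes were, and 0 lower, where 0.22% were. The median difference of the members was 0.02 with 44 of 72 above 0, and all genes had 0.02 with 11007 of 18193. With 1 array left out the median of the members ran from -0.03, without homozygous array 1, to 0.07, without wild-type array 1. The number at an unadjusted p under 0.05 ran from 0, without homozygous array 1 or wild-type array 2, to 4, without homozygous array 2. No share over all genes in these fits is set beside these counts, so they are not read as a result about the members. All homozygous arrays lay above all wild-type arrays for 3 members, Dnajb8, Dnajc25 and Dnajc5b (4.17%, against 3.25% of all genes), and below them for 0 (1.58% of all genes). These shares lie near the background, or rest on 1 to 3 genes. Dnajb8, Dnajc25 and Dnajc5b all had means below the median over all probe sets, and Dnajb8 ranged over 0.07 across the arrays.

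Dnajc25 was the member with the smallest p. It read 6.0, 5.77 and 5.80 on the wild-type arrays, 5.83 and 5.91 on the heterozygous ones and 6.34, 6.19 and 6.02 on the homozygous ones. The difference was 0.32 (SE 0.11, limma unadjusted p 0.0206, adjusted p 0.9999), and the lowest homozygous array lay just above the highest wild-type array. Leaving out 1 array at a time gave 0.25 to 0.41, and the difference was 0.32 (SE 0.14) without the 2 arrays in doubt.

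The next above wild type were Dnajb3, a testis-enriched J protein, and Dnajc5b, a paralog of the cysteine string protein. Dnajb3 read 3.50, 3.51 and 3.74 on the wild-type arrays, 4.08 and 3.87 on the heterozygous ones and 4.01, 3.89 and 3.68 on the homozygous ones, with a homozygous difference of 0.27 (SE 0.12, limma unadjusted p 0.0569). Dnajc5b read 4.38, 4.39 and 4.20 on the wild-type arrays, 4.49 and 4.43 on the heterozygous ones and 4.45, 4.72 and 4.45 on the homozygous ones. Its difference of 0.22 (SE 0.11, limma unadjusted p 0.0749) was 0.13 without homozygous array 2. Both genes were dim, in a table whose lowest value was 2.5.

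Dnajc18, a J protein, read 9.29, 9.21 and 8.72 on the wild-type arrays, 9.17 and 9.08 on the heterozygous ones and 9.65, 8.96 and 9.44 on the homozygous ones. Its difference of 0.28 (SE 0.20, limma unadjusted p 0.208) was 0.05 with the mean of its probe sets, of which the other 2 gave -0.02 and -0.10. It was 0.10 without wild-type array 3, 0.13 without homozygous array 1 and 0.47 without homozygous array 2. Dnajc22 read 6.63, 6.44 and 6.58 on the wild-type arrays, 6.43 and 6.63 on the heterozygous ones and 6.65, 6.78 and 6.57 on the homozygous ones, and differed by 0.12 (SE 0.10) with all arrays and by 0.06 without wild-type array 2 or homozygous array 2. Below wild type, Dnajc24, an enzyme cofactor in making diphthamide, had the smallest p. It read 7.53, 7.53 and 7.68 on the wild-type arrays, 7.46 and 7.64 on the heterozygous ones and 7.35, 7.53 and 7.28 on the homozygous ones, a difference of -0.19 (SE 0.11, limma unadjusted p 0.108). Hspb7, Hsp90b1, Hspa1a, Dnaja4 and Hspa1b, described above, followed.

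Without the 2 arrays in doubt, the median difference of the members was 0.06 and 54 of 72 exceeded 0, where the median of all genes was 0.05 and 11453 of 18193 exceeded 0. Limma again called 0, and 1 member was higher at an unadjusted p under 0.05, against 1.9% of all genes, and 0 were lower, against 0.511%. The member was Dnajb14, an ER membrane J protein, which read 9.06, 8.83 and 8.83 on the wild-type arrays, 8.96 and 9.01 on the heterozygous ones and 9.34, 8.61 and 9.30 on the homozygous ones. Its difference was 0.41 without the 2 arrays (limma unadjusted p 0.0138) and 0.18 (SE 0.19) with all, and its second probe set read 7.54 on homozygous array 1 and 8.29 to 8.92 on the 7 others, so the pair of probe sets went opposite ways on that array.

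**Figure D3:**
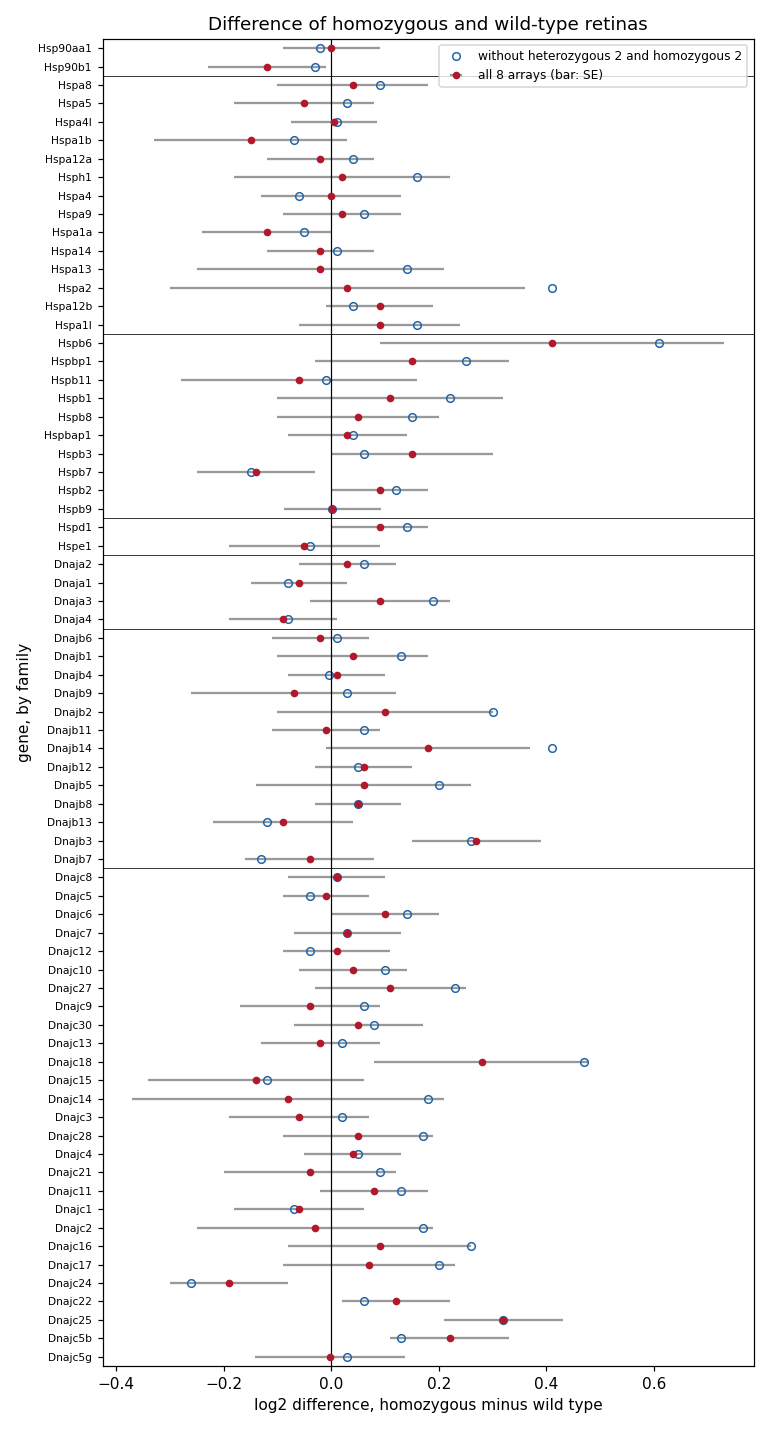
Log2 difference of homozygous minus wild type for the 72 genes (filled points, with bars of 1 SE) and without heterozygous array 2 and homozygous array 2 (open circles), grouped by family. Filled points of most genes lie close to zero, and the widest bars belong to Hspa2, Hspb6 and Dnajc14.

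The 2 arrays labelled heterozygous stood against 3 wild-type arrays, and with Nxnl1 at 8.65 and 6.75 they do not share a level that could stand for 1 null allele. Limma called 0 of the 174 member probe sets (0% of all probe sets). At an unadjusted p under 0.05, 1 of 72 genes was higher (0.451% of all genes), Dnajb3 at 0.39 (SE 0.14, limma unadjusted p 0.0222, adjusted p 0.9999), and 0 were lower (0.72% of all genes). Both heterozygous arrays lay above wild type for 5 members, Dnajb3, Dnajb8, Dnajc5b, Hspb3 and Hspd1 (6.94%, against 6.95% of all genes), and below it for 3, Dnajc1, Hsp90b1 and Hspa12b (4.17%, against 8.03%). Dnajc1, an ER J protein, read 8.27, 8.51 and 8.19 on the wild-type arrays, 8.15 and 8.17 on the heterozygous ones and 8.11, 8.27 and 8.40 on the homozygous ones, a heterozygous difference of -0.16 (SE 0.13, limma unadjusted p 0.25) that was -0.07 without wild-type array 2. Without the 2 arrays in doubt the group is heterozygous array 1 alone, assumed to vary like the other groups. By limma 0 probe sets were then called, 1 of 72 genes was higher at an unadjusted p under 0.05 (0.594% of all genes), Dnajb3 at 0.49 (SE 0.19), and 1 was lower (0.66% of all genes), Hsp90b1 at -0.35 (SE 0.12). Hspa1b then differed by -0.54 (SE 0.24, limma unadjusted p 0.0636).

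Homozygous against heterozygous retinas had 0 calls by limma (0% of all probe sets). At an unadjusted p under 0.05, 1 member was higher (0.632% of all genes), Dnajc25 at 0.31 (limma unadjusted p 0.0371), and 0 were lower (0.176%). The median of the members was 0.05 with 48 of 72 above 0, against 0.03 and 11581 of 18193 for all genes. Without the 2 arrays in doubt 3 were higher (1.68% of all genes), Dnaja3, Dnajb1 and Hsp90b1, and 0 were lower (0.594%), with heterozygous array 1 again alone in its group. The 3 comparisons share arrays, so they are not independent of each other.

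Other genes of the same pathways gave no call either. Of a list of heat shock factors with the binding protein Hsbp1, 6 genes in all, 4 were measured (Hsf2, Hsf4, Hsf5 and Hsbp1), with 0 passing and 0 at an unadjusted p under 0.05, and Hsf1 was not analysed here. Of 28 cochaperones outside the families 20 were above 0 for homozygous minus wild type with a median of 0.05, and 0 passed. The members of smallest p were Fkbp5, an Hsp90-binding immunophilin, at 0.19 (SE 0.12), Sgtb at -0.20 (SE 0.14) and Bag6 at 0.16 (SE 0.12). Of 15 chaperonin and prefoldin genes, which fold actin and tubulin, 9 were above 0, and the smallest p belonged to Pfdn5 at -0.14 (SE 0.10). Of 19 unfolded protein response genes 8 were above 0, and the smallest p belonged to the transcription factor Atf4 at -0.13 (SE 0.11). By limma 0 of these genes passed and 0 had an unadjusted p under 0.05 for homozygous or heterozygous against wild type, and without the 2 arrays in doubt 1 had, Bag6 at 0.28.

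How a chaperone gene varied between arrays depended on which of its probe sets was read. Several probe sets read 46 of the 72 genes, and in 28 of these the homozygous difference had both signs. No share over all genes is set beside this count, so it is not read as a trait of chaperone genes. Hsp90aa1 was flat at its brightest probe set, but its next read 12.36, 13.03 and 13.39 on the wild-type arrays, 13.03 and 13.22 on the heterozygous ones and 12.62, 13.20 and 12.92 on the homozygous ones. The next probe set of Hsp90b1 read 8.78, 9.84 and 10.81 on the wild-type arrays, 9.81 and 10.17 on the heterozygous ones and 8.86, 10.15 and 9.42 on the homozygous ones, a range of 2.04 where the brightest had 0.36. The next one of Dnajb1 read 8.58, 8.99 and 9.34 on the wild-type arrays, 9.08 and 9.40 on the heterozygous ones and 8.76, 9.22 and 8.90 on the homozygous ones. In all 3 cases wild-type array 1 and homozygous array 1, with the lowest actin difference, held the 2 lowest values. The homozygous differences at these probe sets were -0.01, -0.33 and -0.01, with unadjusted p above 0.05.

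**Figure D4:**
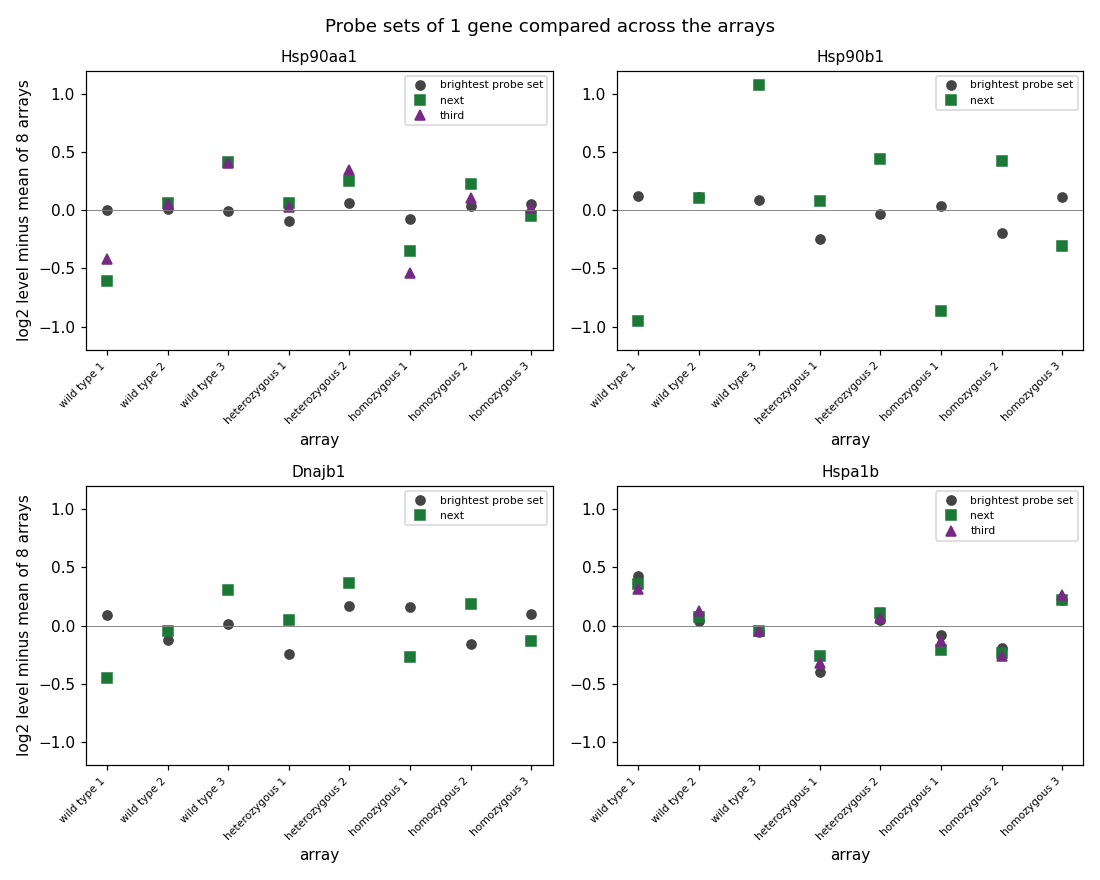
Log2 level of up to 3 probe sets of 4 genes on each array, each minus its own mean over the 8 arrays. The dimmer probe sets of Hsp90aa1, Hsp90b1 and Dnajb1 drop on wild-type array 1 and homozygous array 1 while the brightest do not, and the 3 probe sets of Hspa1b run together.

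Over the 8 arrays, 0 of the 72 brightest probe sets had a correlation of at least 0.7 with the actin difference and 24 had one of -0.7 or lower (33.3%). Of the 102 other member probe sets 30 had at least 0.7 (29.4%) and 16 had -0.7 or lower (15.7%), and over all probe sets the shares were 11.9% and 15.9%. The brightest probe sets of all 18193 genes are the closer background for the 72, and 22.5% of them had -0.7 or lower and 922 had at least 0.7. These are descriptions without a test, since the probe sets share the arrays. In 11 genes, among them Hsp90aa1, Hspa4, Hspa9 and Dnaja2, there was a probe set of each kind, a count without a share over all genes.

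For the 6 members of widest range the relation was tested with exact two-sided permutation tests, adjusted by Benjamini-Hochberg over the 6, a choice made after the values were seen. The range was taken over these same arrays, and the adjustment does not cover the choice of 6 from 72 genes. The p-values are therefore descriptions and no independent support for a relation particular to these genes. Dnajc14 had r = -0.926 (exact p 0.0028, adjusted 0.0107; rho -0.833, exact p 0.0154), Hspa2 r = -0.861 (exact p 0.00357, adjusted 0.0107; rho -0.833), and Dnajc18 r = -0.768 (exact p 0.0249, adjusted 0.0374; rho -0.857, exact p 0.0107). Without the 2 arrays of lowest actin difference r was -0.622, -0.674 and -0.782 over the 6 left. Hspb11 had r = -0.778 (exact p 0.0246, adjusted 0.0374; rho -0.643, exact p 0.0962) and Hspb1 r = -0.728 (exact p 0.0408, adjusted 0.0489; rho -0.619, exact p 0.115), but without these 2 arrays r was -0.0876 and 0.0111, so both relations rest on them. Hspb6 had r = -0.58 (exact p 0.132, adjusted 0.132; rho -0.476, exact p 0.243), and r was -0.097 without them. The arrays of highest summed lens marker level were also the highest for Dnajc14, Hspa2 and Hspb6. The parts of lens tissue, Nxnl1 level and RNA quality in these relations were not told apart.

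**Figure D5:**
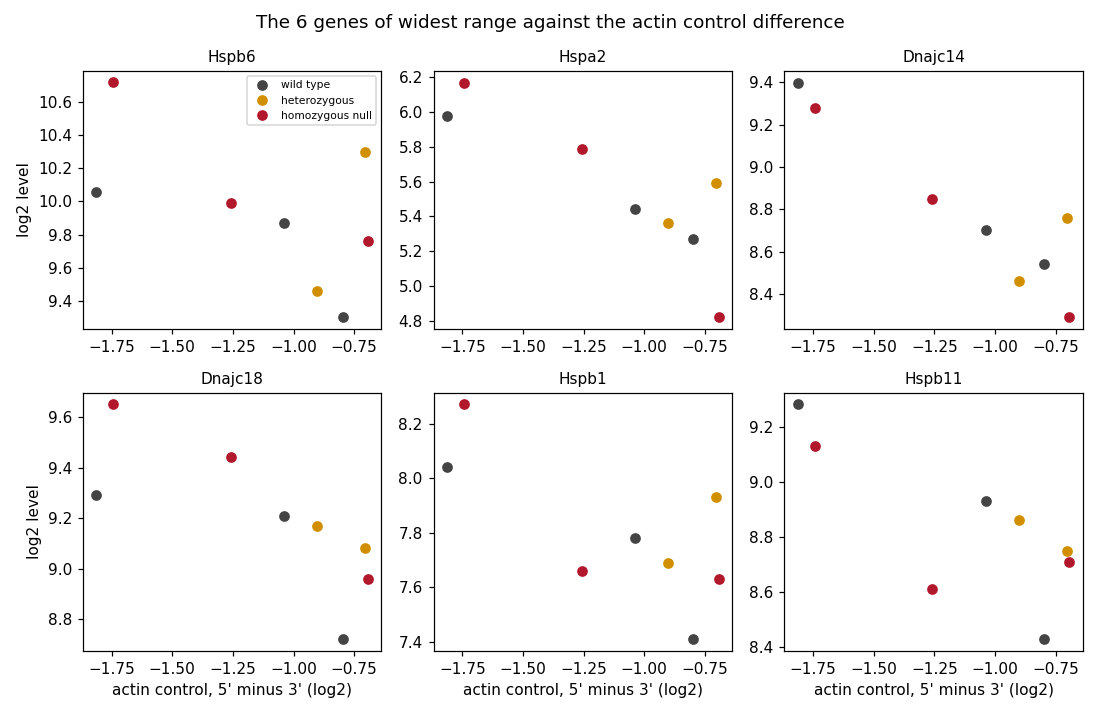
Log2 level of the 6 members of widest range against the actin control, 5' minus 3' signal, 1 point per array, coloured by genotype label. Wild-type array 1 and homozygous array 1 lie at the left and are among the 3 highest in every panel, and the genotype colours are mixed along the axis.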

How the data were processed

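The table deposited by the authors holds log2 expression values for 45101 probe sets on 8 arrays, made with RMA per the submitters' processing notes. No version of RMA is given in the sources used here. RMA makes the distributions of the arrays alike, so each difference is relative to the bulk of transcripts. The 64 control probe sets were left out. Symbols came from the platform annotation, and all 72 agreed by gene identifier with RefSeq (GRCm38.p6). A further 3 probe sets with several symbols were not used. Signals of different probe sets are not compared as levels.

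Group means were fitted to all 8 arrays with limma 3.58.1 in R 4.3.3 (5 residual degrees of freedom) and tested with eBayes, two-sided, Benjamini-Hochberg adjusted over all 45037 probe sets, threshold 0.05. SE is the moderated standard error. The fit was tested on simulated data with independent noise and changes larger than those of the members. That test does not show how well differences of the size reported here would be found. The members and gene lists were chosen with earlier results of these data known. Named were the 2 brightest genes of each family, the 6 above and 6 below 0 of smallest p for homozygous and 3 and 3 for heterozygous against wild type, the 6 of widest range, and up to 3 genes of each other list. Genes outside this rule, and Dnajb14, were named after their values were seen. Alternatives were other scalings, filters, variance models, sample sets and covariates. The number of arrays limits the precision.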

Additional observations from a re-analysis of the deposited data

How the results depend on the processing

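The fits under other scalings, filters, variance models and sample sets left the calls as they were: limma called 0 probe sets in each comparison, except that 1 was called for homozygous and 1 for heterozygous against wild type without wild-type array 3 (0 to 1 over the arrays left out), in each case a probe set of no member. With the replicate block the median homozygous difference of the members was 0.02 and 0 probe sets were called. The labels do not say whether the replicate numbers pair the arrays. Of the 8 arrays, 2 correlated best with an array of their own number in another group. With 2 or 3 arrays a group this cannot decide the question. The median for homozygous minus heterozygous, 0.046 with all arrays, turned to -0.032 with the actin difference as a covariate and -0.031 without the 2 arrays of lowest actin difference, an alternative chosen after seeing the data, and ran from -0.031 to 0.088 with 1 array left out. Signs turned with the mean of all probe sets for Dnajc1 (heterozygous, 0.047), Dnajc14 (0.011) and Dnajc22 (-0.00033), without the 2 arrays in doubt for Dnajc14 (0.18), and without the 2 of lowest actin difference for Hspa1b (0.024) and Hspa2 (-0.055). The cause was not tested. With 1 array left out, homozygous differences ran from -0.31 to 0.18 for Dnajc14, -0.26 to 0.41 for Hspa2, -0.1 to 0.26 for Hspb1 and -0.29 to 0.14 for Hspb11. Genes dimmer than the median probe set have no value under that filter. Precision is limited by 2 or 3 arrays a group.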
